A study of Mus musculus with 4 samples.

Results

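The cluster of imprinted miRNAs that runs from miR-379 to miR-410, a set of miRNA genes in the imprinted Dlk1-Dio3 region of mouse chromosome 12, was examined in mouse embryonic fibroblasts (MEFs) with and without Junb, which forms AP-1 dimers with other Jun and Fos proteins and binds DNA. The cluster was given as 35 miRNA names, from mmu-miR-379, mmu-miR-411 and mmu-miR-299 at one end to mmu-miR-369 and mmu-miR-410 at the other. Array miRNAs whose name equals one of these, alone or with the arm (5p or 3p), were taken. Names with a star, which marks the strand of a hairpin held to be less abundant, were set apart whatever their level here. This gave 41 of the 710 miRNAs on the array, as 6 hairpins are represented by both arms. All 41 had values in every clone, and no filter on low values was applied.

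The arrays came from 2 wild type MEF clones and 2 Junb-/- MEF clones (Junb knock-out), with 1 array per clone. The cells had been isolated from E9.5 embryos on a C57BL/6 × 129/Sv background, were immortalized by the 3T3 protocol and received no treatment before RNA isolation. Immortalized clones may differ for reasons other than genotype, and no source states whether the clones of a genotype derive from different embryos, although the study calls them independent. The p-values therefore rest only on the spread between these clones. The test, limma, draws the variance of each miRNA strongly towards a value shared by all 710 (prior degrees of freedom 11.8, residual 2). Array miRNAs were detected by primer extension with biotin and phycoerythrin staining, with 8 spots per miRNA, and a level here is the mean over the spots of log2(intensity + 50) after quantile normalization over the arrays.

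In mice, the miRNAs of this region are made from the maternal chromosome as parts of long non-coding transcripts, and those between miR-379 and miR-410 lie within or beside the Mirg transcript. A single long precursor is thought to be cut into many hairpins, and each hairpin yields mature miRNAs of its own sequence. The cluster is best known from the brain, where neuronal activity induces it through the transcription factor Mef2 and where miR-134 restrains growth of dendritic spines. It is also expressed in embryonic and mesenchymal tissue and contributes to the metabolic adaptation of newborn mice. Adenosines in miR-376 precursors are edited to inosine in some tissues, which changes the targets of the mature miRNA.

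The hairpins on which the results below turn are shown with their mature sequences, 5′ to 3′, from RefSeq (GRCm38.p6), and all lie on the plus strand of chromosome 12. Capitals mark the seed, bases 2 to 8, which selects the targets. The array names of miR-379, miR-411, miR-541, miR-410 and miR-377 carry no arm and the files hold no probe sequence, so both arms are given. By earlier usage the plain name stood for the 5p arm of miR-379, miR-411 and miR-541 and for the 3p arm of miR-410 and miR-377.
miR-379-5p: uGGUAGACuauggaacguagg
miR-379-3p: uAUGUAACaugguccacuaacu
miR-411-5p: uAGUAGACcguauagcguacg
miR-411-3p: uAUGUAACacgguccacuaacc
miR-541-5p: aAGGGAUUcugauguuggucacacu
miR-541-3p: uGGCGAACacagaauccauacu
miR-410-5p: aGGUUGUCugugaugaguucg
miR-410-3p: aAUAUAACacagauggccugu
miR-377-5p: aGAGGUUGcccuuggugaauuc
miR-377-3p: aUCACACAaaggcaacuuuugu
miR-666-5p: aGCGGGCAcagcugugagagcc
miR-409-3p: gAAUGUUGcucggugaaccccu

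The members shared position rather than seeds. For 33 of the 35 hairpin genes a place was found in the RefSeq gene table of GRCm38, all of them on chromosome 12, with Mir379 first and Mir410 last. RefSeq listed 61 mature arms of these hairpins with 58 distinct seeds, of which 3 occurred in 2 arms each and none in more. One of the shared seeds joins miR-379-3p and miR-411-3p, which have the same base at 20 of 22 positions, while the 5p arms of these neighbouring hairpins match at 14 of 21 positions and at 6 of the 7 seed bases. miR-300-3p and miR-381-3p are also close, with 19 of 22 positions and 6 of 7 seed bases in common.

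The dimmest array was that of wild type clone 1. Its median spot intensity was 33.6, beside 84 to 110.1 in the other clones, and 5167 to 5361 spots per array carried a value. Fibroblast miRNAs marked all clones, as 9 of 9 listed markers had spot medians above 500 in every clone, with summed medians from 17819 to 32972. Of these 9, 1 passed the test between the genotypes, miR-31 (log2 fold change -2.69, adjusted p = 0.00562 from limma). None of the listed epithelial, endothelial, blood, muscle, liver or pluripotent cell markers exceeded 500 in any clone. Of the neuronal list, miR-128 exceeded 500 in wild type clone 2 and Junb-/- clone 2 and miR-129-3p in both wild type clones. The summed neuronal list was 1015 and 1983 in wild type MEFs against 465.3 and 917 without Junb, hence highest in wild type clone 2, the clone in which many cluster members were high as well. miR-128, miR-129-3p and miR-124 made up most of it, while miR-9 was lowest in that clone (spot medians of 30.6 and 9.6 in wild type, 60 and 30.8 without Junb). miR-129-3p, with spot medians of 740 and 854.6 in wild type against 123.9 and 84.5 without Junb, was itself called lower. It was the only 1 of the 6 listed to pass the test (log2 fold change -2.45, adjusted p = 0.00562 from limma). These intensities were not normalized. By normalized level, miR-124 and miR-128 were highest in wild type clone 2 (8.17 and 8.98). miR-129-3p, miR-129-5p and miR-9 were highest in wild type clone 1 (9.76, 7.06 and 6.97) and miR-219 in Junb-/- clone 1 (6.93). The fibroblast sum, too, was highest in wild type clone 2. The part of either in the results was not tested.

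miR-379, the first hairpin of the cluster, was the single member that differed between the genotypes by the test. In this and all later pairs of values, clone 1 precedes clone 2. The level of miR-379 was 8.47 and 9.87 in wild type MEFs against 7.22 and 6.20 without Junb. Both Junb-/- clones thus lay below both wild type clones, and the clones of each genotype also differed among themselves by 1.40 (wild type) and 1.02 (Junb-/-). The log2 fold change was -2.45 (standard error 0.48, 95% interval from -3.48 to -1.43, adjusted p = 0.0163 from limma over all 710 miRNAs), a 5.48-fold lower level. Before normalization the median spot intensity of miR-379 was 197 and 976 in wild type MEFs against 127.1 and 33.1 without Junb. At 5 of its 8 spots both wild type clones were above both Junb-/- clones. Of the 41 members 1 was called lower (0.845% of all miRNAs were) and 0 were called higher (0.563% of all miRNAs were). At an unadjusted p under 0.05, 4 members were lower, beside 5.07% of all miRNAs. Leaving out wild type clone 1 or clone 2 gave a log2 fold change of -3.15 or -1.75 for miR-379. Leaving out Junb-/- clone 1 or clone 2 gave -2.96 or -1.94. Whether the call held in these fits also depended on limma's prior degrees of freedom. These were 5.2 without a wild type clone and infinite without a Junb-/- clone. The call held in 10 of 17 alternatives, among them every one with infinite prior degrees of freedom. The log2 fold change was below 0 in 17 of 17.

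miR-541 and miR-411 had the next largest differences, and neither passed the test. miR-541, which limits neurite growth in rat cells, had levels of 7.07 and 8.67 in wild type MEFs against 6.63 and 6.14 without Junb. miR-411, encoded next to miR-379, had levels of 7.45 and 8.78 in wild type MEFs against 6.71 and 6.85 without Junb. For both, wild type clone 1 stood closer to the Junb-/- clones than to wild type clone 2. The log2 fold change of miR-541 was -1.48 (95% interval from -2.50 to -0.47, adjusted p = 0.184 from limma) and that of miR-411 was -1.34 (95% interval from -2.26 to -0.41, adjusted p = 0.184). Without wild type clone 2 these values shrank to -0.68 and -0.67. miR-541 passed under 3 of 17 alternatives and miR-411 under 0 of 17. Each of these 3 fits had infinite prior degrees of freedom, which leaves a miRNA's own clone-to-clone spread without weight.

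The 3 members with the highest values above 0 did not pass either. miR-679 had levels of 6.58 and 6.37 in wild type MEFs against 7.02 and 7.20 without Junb, a log2 fold change of 0.63 with limma's 95% interval from -0.12 to 1.38 and an adjusted p of 0.613. miR-654-3p had levels of 6.71 and 6.11 in wild type MEFs against 7.04 and 7.00 without Junb, which gave 0.61 on the log2 scale (adjusted p = 0.649). miR-323-5p had levels of 6.42 and 6.56 and of 7.18 and 6.92, with 0.56 as the log2 fold change (adjusted p = 0.670). In each of these both Junb-/- clones were above both wild type clones, at levels between 6.11 and 7.20, where the offset of 50 compresses differences. miR-380-3p (log2 fold change 0.13) and miR-412 (0.50) showed the same order of the clones. In all, both Junb-/- clones lay above both wild type clones for 5 of 41 members (12.2%, beside 21.3% of all miRNAs) and below both for 12 of 41 (29.3%, beside 17.3% of all miRNAs). The 12 were miR-379, miR-541, miR-411, miR-409-3p, miR-300, miR-134, miR-496, miR-494, miR-376c, miR-485, miR-323-3p and miR-299.

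Over the 41 members the log2 fold change had a median of -0.23, beside 0.044 over all 710 miRNAs, with 26 values below 0 and 15 above. The values ran from -2.45 for miR-379 to 0.63 for miR-679. Without wild type clone 2 the median of the members was -0.021 (0.0055 over all miRNAs), and leaving out clone 1 of the wild type gave -0.23 (0.06 over all miRNAs).

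**Figure D1:**
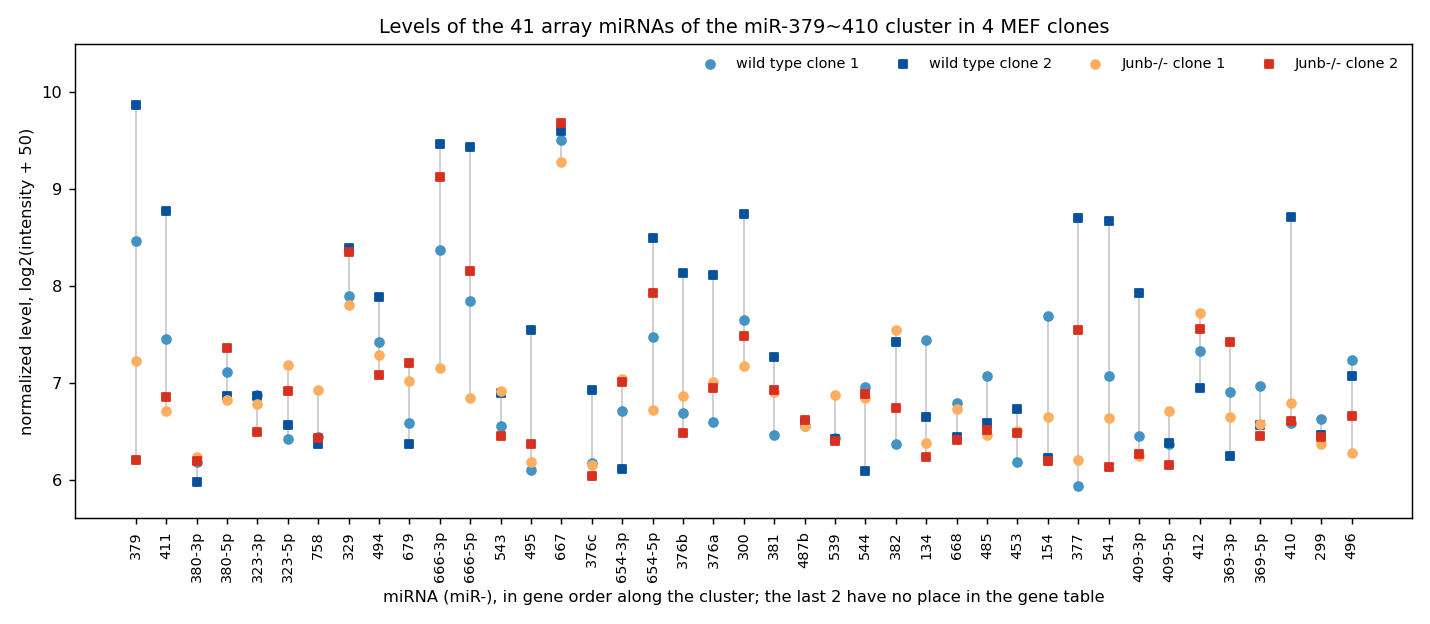
Normalized level, log2(intensity + 50), of each of the 41 members (one column each, in gene order along chromosome 12, with miR-299 and miR-496 last as they were not placed) in the 4 clones; grey lines span the clones. Wild type clone 2 was the highest clone for 18 members, among them miR-379, miR-377, miR-541 and miR-410 (levels 9.87, 8.70, 8.67 and 8.71), and for 24 members the 4 clones spanned less than 1.

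All 4 clones were also compared pair by pair. A difference of more than 1 on the log2 scale was seen between the wild type clones for 14 of 41 members that were higher in clone 2 (34.1%, beside 5.77% of all miRNAs) and for 1 member, miR-154, that was higher in clone 1 (2.44%, beside 3.24% of all miRNAs). With 1 array per clone these are descriptions without a test. Against wild type clone 2, 13 members were lower by more than 1 in Junb-/- clone 1 (31.7%, beside 10.6% of all miRNAs) and 11 in Junb-/- clone 2 (26.8%, beside 4.51% of all miRNAs). Against wild type clone 1 the numbers were 5 (12.2%, beside 5.77%) and 3 (7.32%, beside 3.52%). Both sets of comparisons share the Junb-/- arrays. Between the Junb-/- clones, 4 members were higher in clone 2 by more than 1 (9.76%, beside 4.08% of all miRNAs). By the same margin 1, miR-379, was higher in clone 1 (2.44%, beside 2.11% of all miRNAs). Wild type clone 2 was the highest of the 4 clones for 18 members (43.9%, beside 24.6% of all miRNAs).

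**Figure D2:**
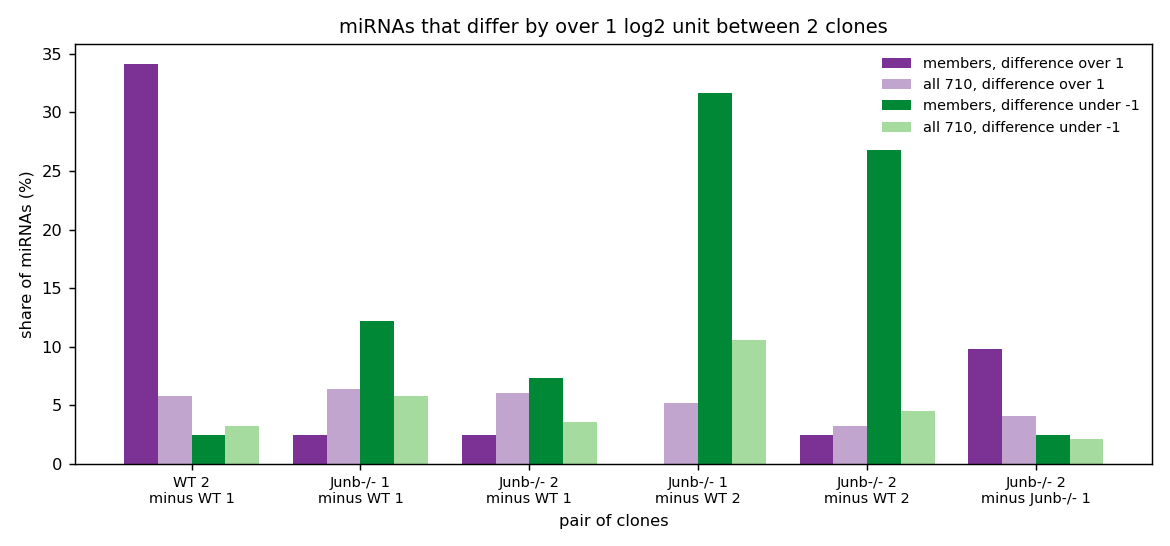
Share of miRNAs (%, bars from 0) whose level differed by more than 1 on the log2 scale in each of the 6 pairs of clones (WT, wild type), for the 41 members (dark bars) and for all 710 miRNAs (light bars), with positive differences in purple and negative ones in green. The shares of members are largest in the 3 pairs that contain wild type clone 2, at 34.1%, 31.7% and 26.8%.

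The 14 members that were higher in wild type clone 2 were singled out after their values had been seen. They come from 13 hairpins spread along the whole cluster, with 8 array miRNAs from its first 16 placed genes (Mir379 to Mir376a) and 6 from the other 17 (Mir300 to Mir410). In 13 of the 14, all but miR-382, wild type clone 2 was the highest of all clones. In wild type clone 2 their median spot intensities ran from 156 to 976, in wild type clone 1 from 5.76 to 197, in Junb-/- clone 1 from 2.32 to 156 and in Junb-/- clone 2 from 13.2 to 634. Because wild type clone 2 also enters the wild type mean, this choice of members moves their log2 fold changes below 0 by construction, and these are given below only as each member's values. miR-487b was the steadiest of the other 27 members, with 6.55 and 6.59 in wild type MEFs against 6.55 and 6.62 without Junb.

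miR-377, which increases fibronectin in kidney mesangial cells, had the largest difference between the wild type clones, with levels of 5.93 and 8.70 in clones 1 and 2, and with 6.20 and 7.54 in Junb-/- clones 1 and 2. At all 7 spots measured on every array it was higher in wild type clone 2 than in clone 1. Its spot medians were 5.76 and 524 in wild type MEFs against 12 and 198 without Junb, so both Junb-/- values lay between the wild type values. The log2 fold change was -0.45 with a 95% interval from -1.91 to 1.02, the widest among the members. It was 0.94 without wild type clone 2.

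miR-410, at the far end of the cluster, was high in a single clone. Its levels were 6.59 and 8.71 in wild type MEFs against 6.80 and 6.60 without Junb, and its spot medians were 12.2 and 621, and 17 and 20.96. All 8 spots were higher in wild type clone 2 than in wild type clone 1. The log2 fold change of -0.95 (95% interval from -2.10 to 0.19, adjusted p = 0.617 from limma) became 0.11 without wild type clone 2.

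miR-409-3p behaved similarly, with levels of 6.45 and 7.93 in wild type MEFs against 6.24 and 6.27 without Junb. So did miR-495, with 6.10 and 7.54 in wild type MEFs against 6.18 and 6.36 without Junb. Of the miR-376 family, which is subject to A-to-I editing, miR-376a had 6.60 and 8.11 in wild type MEFs against 7.01 and 6.95 without Junb. In miR-376b the levels were 6.69 and 8.14, and 6.86 and 6.48. miR-376c differed less between the wild type clones, with 6.17 and 6.93, and had 6.15 and 6.04 in the Junb-/- clones. In these 5 members the remaining clones spanned at most 0.41 log2 units and wild type clone 2 stood above them.

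A smaller group was high in Junb-/- clone 2 as well. The arms of the miR-666 hairpin, both on the array, had levels of 7.85 and 9.44 (5p) and of 8.37 and 9.47 (3p) in wild type clones 1 and 2, and of 6.84 and 8.15 (5p) and 7.15 and 9.12 (3p) in Junb-/- clones 1 and 2. In miR-654-5p the levels were 7.48 and 8.49, and 6.72 and 7.92. With miR-377 these are the 4 members that were higher in Junb-/- clone 2 than in Junb-/- clone 1 by more than 1 (1.97 for miR-666-3p, 1.34 for miR-377, 1.31 for miR-666-5p and 1.20 for miR-654-5p). Their log2 fold changes between the genotypes were -0.78 for miR-666-3p, -1.14 for miR-666-5p (95% interval from -2.27 to -0.02, adjusted p = 0.462 from limma) and -0.66 for miR-654-5p. For miR-666-3p the value was 0.20 without Junb-/- clone 1.

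**Figure D3:**
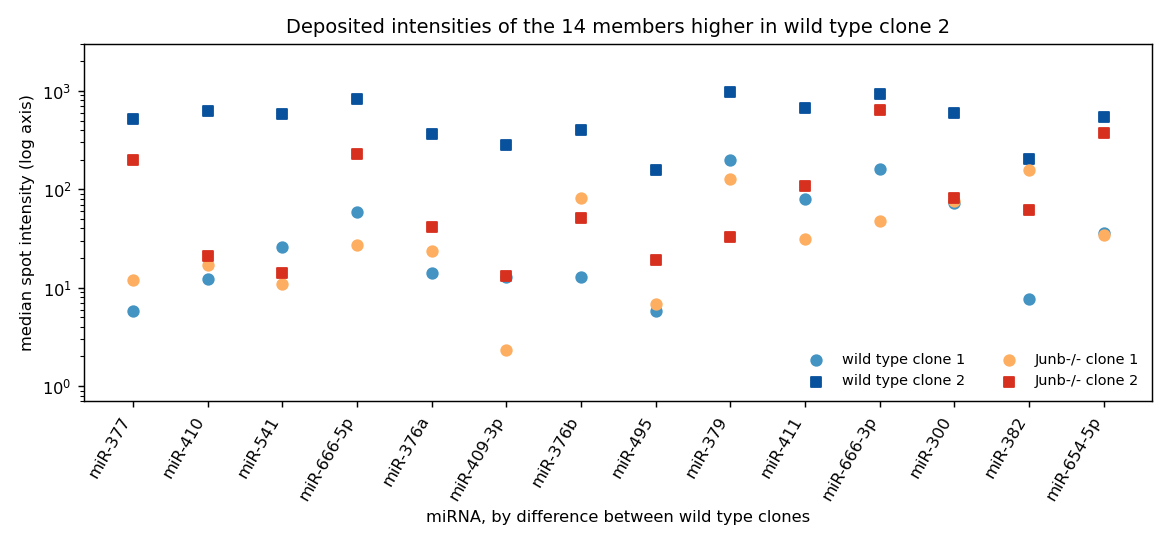
Median spot intensity as deposited, before any offset or normalization (log axis), of the 14 members whose level was higher by more than 1 in wild type clone 2 than in wild type clone 1, in each of the 4 clones. Wild type clone 2 gives the highest intensity for each of the 14, and for miR-410, miR-541 and miR-409-3p all other clones lie at 26 or below.

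The array of wild type clone 1, the dimmest, is on the low side of this difference, and its part was not tested. Junb-/- clone 2, whose array had a median intensity of 110.1 beside 105.6 for wild type clone 2, had spot medians of 20.96 for miR-410, 14 for miR-541 and 13.2 for miR-409-3p, beside 621, 578 and 285 in wild type clone 2. Others of the 14 were brighter on the same array, with 634 for miR-666-3p, 376.5 for miR-654-5p, 227 for miR-666-5p and 198 for miR-377. The count of members higher in wild type clone 2 than in clone 1 by more than 1 was 10 with cyclic loess (24.4%, beside 4.23% of all miRNAs), 16 with an offset of 16 (39.0%, beside 11.7%) and 19 in the values normalized by the authors (46.3%, beside 17.7%). After scaling to the 75th percentile it was 4 (9.76%, beside 2.11%), with the median of all miRNAs itself at -0.82, and 14 relative to that median (34.1%, beside 12.5%). The ratio of the share of members to that of all miRNAs was smallest without an offset (17 members, 41.5%, beside 23.7%) and without normalization (19 members, 46.3%, beside 29.7%). Relative to the median of all miRNAs the counts were 17 without an offset (41.5%, beside 19.2%) and 14 without normalization (34.1%, beside 12.5%). The last equals that of the 75th percentile scaling by construction, as the 2 settings differ by a constant per array.

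Both miR-667 and miR-329, 2 further bright members, had differences near 0 that changed sign with the processing. miR-667, the member with the highest mean level, had 9.51 and 9.60 in wild type MEFs against 9.28 and 9.68 without Junb. Its log2 fold change was -0.07 with a 95% interval from -0.83 to 0.69, and it was above 0 without Junb-/- clone 1 (0.13), without normalization (0.10) and with medians over the spots (0.11). miR-329 had 7.90 and 8.39 in wild type MEFs against 7.80 and 8.36 without Junb, which is a log2 fold change of -0.06 (95% interval from -0.87 to 0.74) that turned to 0.18 with cyclic loess and to 0.31 without normalization. In both genotypes clone 2 of miR-329 was above clone 1, by 0.49 and 0.55. miR-300, with 7.65 and 8.74 in wild type MEFs against 7.18 and 7.49 without Junb, had a log2 fold change of -0.86 (limma's 95% interval from -1.74 to 0.01 and adjusted p of 0.464), and it was below 0 in 17 of 17 alternatives. miR-381, close to it in sequence, had 6.46 and 7.26 in wild type MEFs against 6.91 and 6.93 without Junb, which is a log2 fold change of 0.06.

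Among the members with the higher normalized level in wild type clone 1 were miR-154, miR-134 and miR-496. miR-154, a miRNA raised in human lung fibrosis, had 7.69 and 6.23 in wild type MEFs against 6.65 and 6.19 without Junb. miR-134, the synaptic regulator, had 7.44 and 6.65 in wild type MEFs against 6.38 and 6.23 without Junb, so that the genotypes did not overlap, with a log2 fold change of -0.74 (limma's 95% interval from -1.55 to 0.07 and adjusted p of 0.512). miR-496 was likewise lower in both Junb-/- clones (7.24 and 7.07, and 6.28 and 6.65), without passing the test (adjusted p = 0.513). All 3 were dim, with spot medians of at most 87.5 in any clone. Before normalization, miR-134 (73.1 and 87.5) and miR-496 (49.6 and 84) were brighter in wild type clone 2 than in clone 1, so their order within the wild type depended on the normalization.

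By mean level over the 4 clones, members of higher level had lower log2 fold changes. The Spearman correlation of the mean level over the 4 clones with the log2 fold change was -0.40 over the 41 members (Pearson -0.36), beside -0.14 over all 710 miRNAs (Pearson -0.11). It is given as a description, since the brightness of a probe also depends on its sequence and the points share the same 4 arrays and the same genomic cluster. The wild type values also enter both quantities, so a member high in 1 wild type clone alone gains a higher mean level and a lower log2 fold change. Among the 13 members with the highest mean levels (7.13 to 9.52) the median log2 fold change was -0.78, with 12 values below 0, whereas the other miRNAs of that range had a median of -0.08, with 120 values below 0 and 99 above. Among the 14 members of lowest level (6.15 to 6.69) the median was -0.09, and among the 14 between them it was 0.083.

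The relation differed with the wild type clone compared and with the clones that set the level. When the Junb-/- mean was compared with wild type clone 1 alone, the Spearman correlation with the mean level was -0.12, and with wild type clone 2 alone it was -0.49. Ranked by the level in the Junb-/- clones, the members gave 0.18, and ranked by the level in the wild type clones they gave -0.74. The difference between the wild type clones, which does not involve the genotype, had a Spearman correlation of 0.46 with the mean level over the members and of 0.33 over all miRNAs. Each of these differences shares values with the level it is set against.

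**Figure D4:**
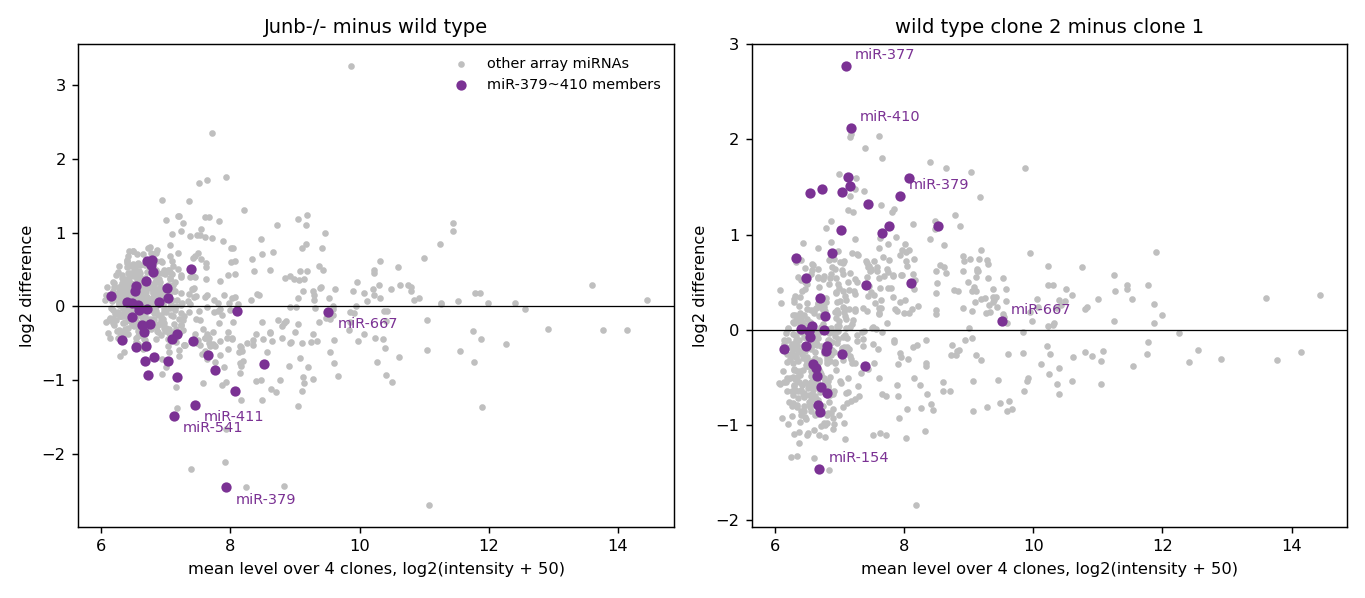
Log2 difference between Junb-/- and wild type MEFs (left) and between wild type clones 2 and 1 (right) against the mean level over the 4 clones, log2(intensity + 50), for the 41 members (purple) and the other array miRNAs (grey). Members of higher level lie mostly below 0 on the left and above 0 on the right, where the 13 members with the highest levels have medians of -0.78 and 1.09. Both differences share values with the mean level.

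The strands of a hairpin are cut from a single precursor. Both were on the array for 15 of the hairpins, as 2 arms or as a strand and its star strand, and the log2 fold changes had the same sign in 6 of these (40.0%), beside 92 of 166 other hairpins (55.4%). None of the strands of these 15 hairpins passed the test (lowest adjusted p = 0.184 from limma), and several values lay near 0. miR-411 had -1.34 and miR-411* 0.012, miR-409-3p had -0.94 and miR-409-5p 0.05, and miR-654-5p had -0.66 and miR-654-3p 0.61. In the miR-666 hairpin both arms were below 0 and both were higher by more than 1 in wild type clone 2 than in clone 1, which held for 1 of the 15 hairpins. Of the 9 star strands of members, 0 passed the test (0.845% of all miRNAs were called lower and 0.563% higher) and their median log2 fold change was -0.21. miR-299* (log2 fold change -0.82, adjusted p = 0.626 from limma) had 6.59 and 8.23 in wild type MEFs against 6.77 and 6.41 without Junb, high in wild type clone 2 alone like miR-410, whereas miR-299 ranged from 6.37 to 6.63 over the 4 clones.

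Beyond the given names, 22 further array miRNAs of the Dlk1-Dio3 region were counted, with log2 fold changes centred on -0.03 (median). Of these 1 was called lower (0.845% of all miRNAs were) and 0 were called higher (0.563% of all miRNAs were). The gene table places 38 miRNA genes from Mir379 to Mir410, of which 33 matched a member by symbol, with no match for miR-299 and miR-496. Some of the 22 may thus lie within the cluster, and the list is not a contrast of the cluster with the rest of the region. The lower one, miR-127, lies opposite Rtl1, had a log2 fold change of -2.20 (adjusted p = 0.0460 from limma) and levels of 7.54 and 9.45 in wild type MEFs against 6.33 and 6.26 without Junb. In this list 5 of 22 miRNAs (22.7%, beside 5.77% of all miRNAs) were higher in wild type clone 2 than in clone 1 by more than 1, among them miR-434-3p with 6.84 and 8.89 and miR-431 with 8.03 and 9.79. The 8 array miRNAs of other imprinted loci had a median log2 fold change of 0.14, with 1 called higher (0.563% of all miRNAs were) and 0 lower (0.845% were). The higher one was miR-335-5p of the Mest gene (log2 fold change 3.26, adjusted p = 0.00562 from limma). Of the 8, 2 were higher in wild type clone 2 than in clone 1 by more than 1 (25.0%, beside 5.77% of all miRNAs).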

How the data were processed

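The 4 deposited scanner tables hold the raw intensity of each spot for 710 miRNAs (8 spots each), with no background or flag column, and the deposited matrix holds log2 values normalized by the authors, which served as an alternative. No source used here names the scanner software or a background step. For the main values, log2(intensity + 50) was brought to common quantiles on all arrays, the mean over a miRNA's spots was taken, and Junb-/- was compared with wild type in limma 3.58.1 (R 4.3.3) with Benjamini-Hochberg adjustment over all 710 miRNAs at 0.05 (prior degrees of freedom 11.8, residual 2). The procedure was tested on simulated data. Tables and plots were made with Python 3.11.15 and matplotlib 3.10.9. Members and lists were chosen with earlier results of these data known. Clone values were given for members past the threshold, the 8 with the highest mean level and the 3 with the largest change in each direction. Other members were named after their values had been seen. Array precision is limited by the number of arrays. Alternatives changed the offset, the normalization, the summary over spots, the miRNAs tested, the variance model, the pairing and the clones used.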

Additional observations from a re-analysis of the deposited data

How the results depend on the processing

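With 2 clones per genotype the calls depended on single arrays and on the processing. Over all miRNAs 4 were higher and 6 lower. Without an offset, without normalization and with medians over the spots 0 were higher and 0 lower (44, 31 and 75 miRNAs at an unadjusted p under 0.05). With values under 16 set to 16 it was 1 higher and 3 lower, in the values normalized by the authors 2 and 2. With 75th percentile scaling 2 were higher, with trend and robust settings 8 were higher, and with median scaling 10 were lower. Leaving out a clone gave 0 to 5 higher and 0 to 7 lower miRNAs and 0 to 1 lower members; it was 0 and 0 without either wild type clone (71 and 62 at an unadjusted p under 0.05), and 2 higher without Junb-/- clone 2. The number of lower members, 1, became 0 in those 3 settings, with values under 16 set to 16 and in the values normalized by the authors, and 2 (miR-379 and miR-541) with median scaling, the brighter 355 miRNAs, and trend and robust settings. miR-379 stayed below 0 in 17 of 17 alternatives and passed in 10. One of these, spots measured on all 4 arrays, was chosen after seeing the data. The prior degrees of freedom were infinite with 75th percentile scaling, median scaling, the brighter 355 miRNAs, and trend and robust settings. They were also infinite without either Junb-/- clone. There the spread of miR-379 and of miR-541 between clones had no weight of its own. Without either wild type clone they were 5.2, so counts from fits without 1 clone cannot be compared with each other.

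The median log2 fold change of the members, -0.23, was -0.72 without an offset, -0.40 with values under 16 set to 16, -0.48 with 75th percentile scaling, -0.41 with median scaling, -0.049 without normalization, -0.36 in the values normalized by the authors, -0.66 in the brighter 17 members and -0.40 with medians over the spots. Leaving out a clone gave -0.27 to -0.021. The median of all miRNAs moved to -0.20 with 75th percentile scaling, to -0.13 with median scaling and to 0.23 without normalization. These 3 settings differ only by a constant per array, so the members lie 0.28 below that median in each of them by construction. The sign turned for miR-329 with cyclic loess (0.18) and without normalization (0.31), for miR-667 without normalization (0.10) and with medians over the spots (0.11), and for miR-382 with 75th percentile scaling (-0.055). Leaving out a clone gave -0.34 to 0.21 for miR-329, -1.13 to 0.38 for miR-376a, -1.83 to 0.94 for miR-377, -0.28 to 0.77 for miR-382, -2.01 to 0.11 for miR-410, -1.27 to 0.17 for miR-495, -1.77 to 0.20 for miR-666-3p and -0.27 to 0.13 for miR-667, so that all of these changed sign. The value above 0 came without wild type clone 2 for miR-376a, miR-410 and miR-495, and for miR-377 also without Junb-/- clone 1 (0.23). The cause was not tested.

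The clone numbers are shared by the genotypes. Deviations of same-numbered clones correlated at 0.31, and the study speaks of clone pairs without saying that the numbers mark them. With the replicate block 10 miRNAs were lower and 6 higher, and 1 member was lower. An unadjusted limma p under 0.05 was then seen for 10 of 41 members instead of 4, beside 110 of all 710 miRNAs instead of 74.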
